A study of Mus musculus with 5 samples.

Results

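The T and NK cell genes described here are 33 genes that mark T lymphocytes and natural killer (NK) cells, chosen by name for what they are known for. Each was represented by the array spots whose transcript carries its symbol, and by its brightest probe where there were several. All 33 had a probe, and all 33 entered the test, among 27938 genes and unnamed probes tested. RNA came from adherent peritoneal macrophages of 8 week old mice on a mixed 129/C57Bl6 background, of either sex, after an overnight culture and removal of the floating cells. The wild-type group had 3 littermate mice (numbers 5, 11 and 14). The c-Jun-deleted group had 2 mice (numbers 1 and 9) with floxed c-Jun alleles (cJunfl/fl) and 1 copy of LysMCre, a Cre recombinase expressed from the lysozyme gene of myeloid cells. The source names of these 2 samples give a different Cre line, Mx, which is inducible by interferon and acts in many cell types including lymphocytes. Each sample was 1 mouse on 1 array labelled with Cy3, and with 5 arrays in all precision is limited by their number.

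T cells recognise antigen through a receptor whose signal is carried by the CD3 and zeta chains and passed on by the kinases Lck and Zap70 to the adaptor Lat. NK cells lack that receptor, read activating and inhibitory lectin-like receptors instead, and share with CD8 T cells the granule proteins that kill target cells. Both cell types live in the peritoneal cavity beside macrophages, B cells and mast cells, and lavage collects them together. LysM-Cre is known for deleting floxed genes in macrophages and neutrophils, not in T or NK cells.

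Levels are given as log2 of the spot signal relative to the 75th percentile of all non-control spots of the same array, so 0 is a signal at that percentile. Levels of single genes are compared between arrays for 1 probe, not between probes. Summed levels of a list give most weight to its brightest probes. A spot is called above background where the scanner software marked it as well above background. Between 52.1% and 59.9% of all probes were above background on an array, and between 29 and 33 of the 33 T and NK cell genes had such a probe. Jun, the deleted gene, was at 3.21, 3.75 and 3.17 on wild-type 5, 11 and 14, against 2.76 and 2.71 on c-Jun-deleted 1 and 9 (difference -0.64, SE 0.23). The position of its probe with respect to the floxed region is not given, so this level is no check of the genotype. Of the macrophage markers, 11 of 11 measured were above background on every array. So were the 9 mast cell markers that entered the test, which required at least 2 of 5 arrays above background. Ms4a2, also a mast cell marker, was above background on 1 of 5 and did not enter. Of the B cell markers, 18 or 19 of 19 were above background on each array, so detection does not show how pure the cultures were. Adgre1, a surface receptor that defines mouse macrophages, was at 7.64, 6.68, 7.51, 7.52 and 7.36 in the same order of arrays. Lyz2, the lysozyme gene that carries LysMCre, was at 8.70, 8.76 and 9.18 against 4.46 and 8.52, so the c-Jun-deleted mice differed from each other at that gene. The Y-linked genes Ddx3y, Eif2s3y and Kdm5d were above background only on wild-type 11, and Uty, also Y-linked, on wild-type 11 (-2.06) and wild-type 14 (-3.97). Xist, the transcript of the inactive X chromosome, was at 0.20, -4.53 and -0.04 against 0.57 and 0.74, lowest on wild-type 11. Eif2s3y was at -7.02, 3.27 and -6.97 against -7.94 and -6.66. By these genes wild-type 11 alone read as male, and both c-Jun-deleted arrays read as female. The arrays lay on 2 slides, with wild-type 5 and c-Jun-deleted 1 on slide 1 and the other 3 arrays on slide 2.

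The main feature of the T and NK cell genes was their order over the arrays, which did not follow the genotype. Of the 33 genes, 25 had their highest value on wild-type 11. Another 7 were highest on c-Jun-deleted 9, and Cd247 was highest on wild-type 5. The 25 genes are 75.8% of the members, whereas 22.3% of all genes tested had their highest value on wild-type 11. Wild-type 11 was above both other wild-type arrays for 31 of the 33 genes, against 33.3% of all genes. In 22 of the 33, both c-Jun-deleted arrays lay below wild-type 11 and above wild-type 5 and wild-type 14, an order that 3.92% of all genes had. C-Jun-deleted 9 was above c-Jun-deleted 1 for 31 of the 33 genes, against 51% of all genes. These shares were noticed in the data, the genes share their arrays and are not independent, and no test was run on the shares. RNA of a mixed culture cannot tell more T and NK cells from more of these transcripts in each cell.

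**Figure D1:**
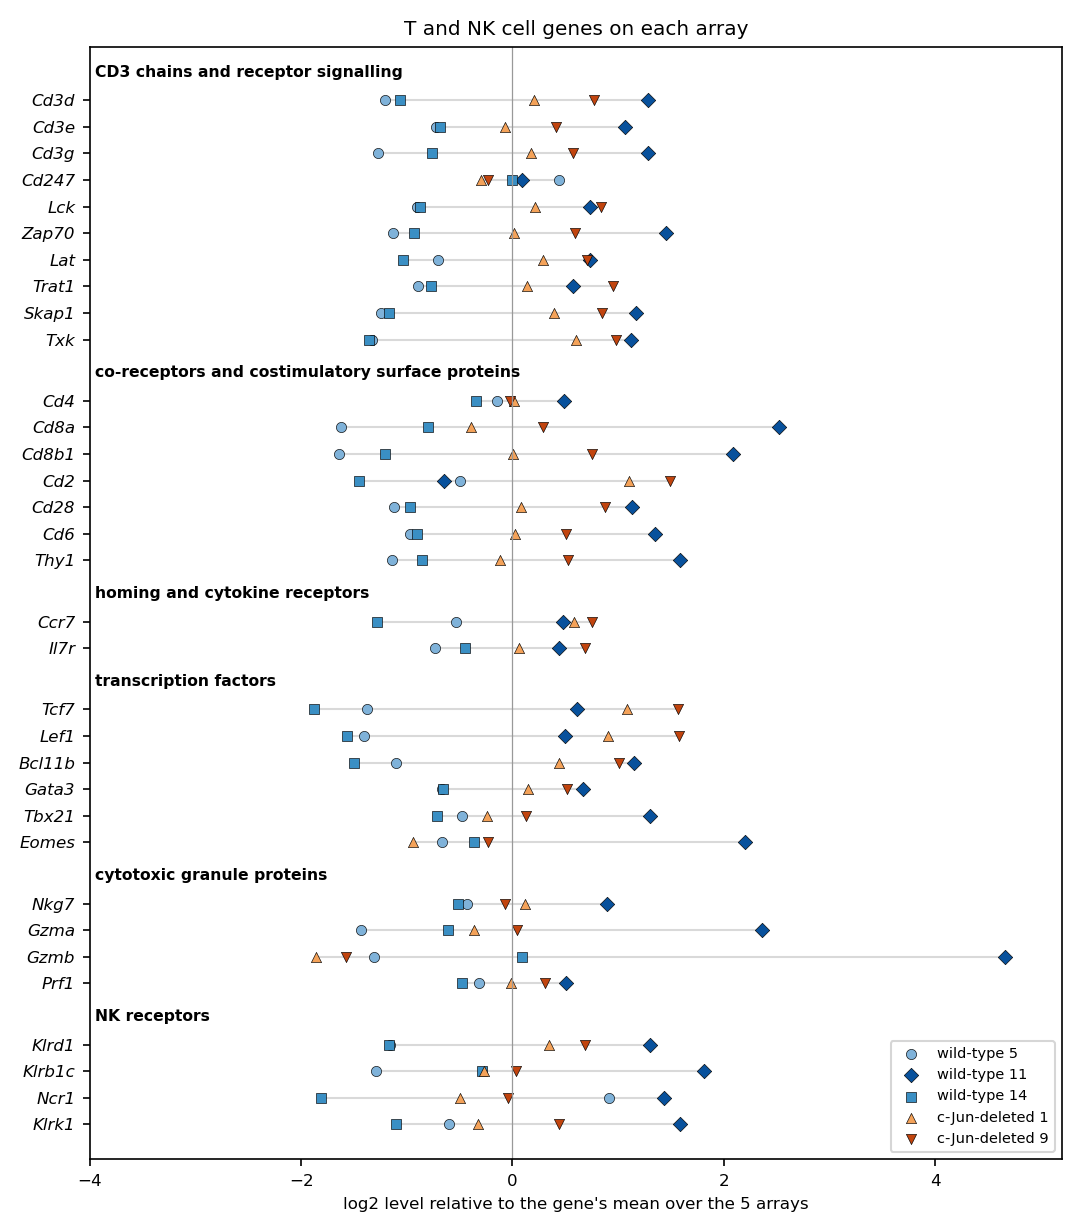
Level of each T and NK cell gene on the 5 arrays (horizontal axis, log2, relative to that gene's mean over the 5 arrays), grouped by role; each symbol is 1 array and the grey line joins the lowest and highest. Wild-type 11 (dark blue diamond) is the rightmost symbol for 25 of the 33 genes, with wild-type 5 and 14 mostly at the left and the c-Jun-deleted arrays between.

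**Figure D2:**
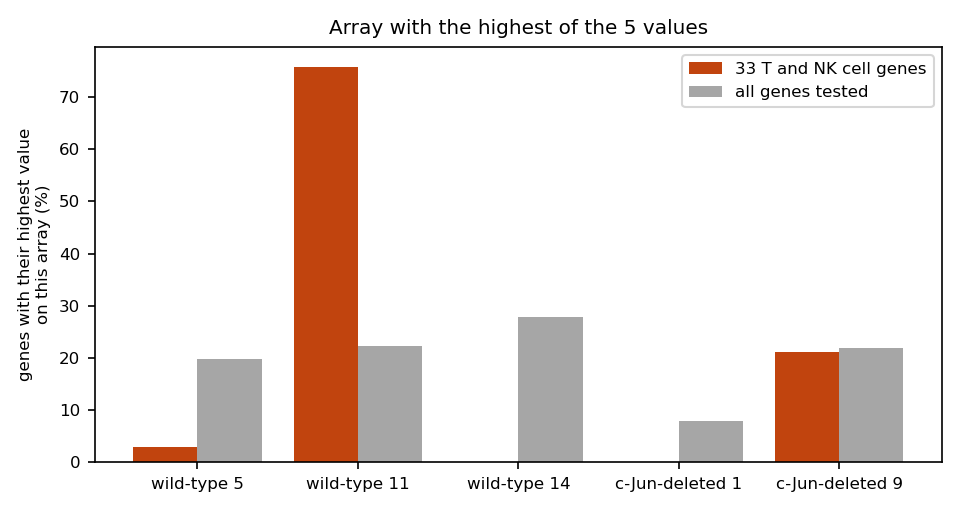
Percentage of genes whose highest value was on each array, for the 33 T and NK cell genes (orange bars) and for all 27938 genes tested (grey bars). On wild-type 11 the bars stand at 75.8% and 22.3%, and on c-Jun-deleted 9 at 21.2% and 21.9%.

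The order held in 7 of the 10 CD3 and signalling genes, among them the 3 CD3 chains. Cd3d, an invariant CD3 chain, was at -0.12, 2.37 and 0.02 on wild-type 5, 11 and 14, against 1.29 and 1.86 on c-Jun-deleted 1 and 9. Cd3g, whose product pairs with CD3 epsilon in the same complex, was at -1.17, 1.39 and -0.66 against 0.28 and 0.68. Cd3e, the CD3 epsilon chain itself, was at 0.67, 2.46 and 0.71 against 1.32 and 1.81. For all 3 chains wild-type 5 and wild-type 14 were the lowest arrays and wild-type 11 the highest, so the groups overlapped. The group differences, c-Jun-deleted minus wild-type with the standard error (SE) of the fit, were 0.82 (SE 0.85), 0.62 (SE 0.82) and 0.29 (SE 0.63), each smaller than its SE.

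Cd3d and Cd3g lie head to head on chromosome 9 of assembly GRCm38.p6, with their start sites 1355 bases apart, and their upstream sequences are shown because the pair had the same order of arrays. The windows are the 250 bases before each start site, chr9:44981536-44981785 on the forward strand for Cd3d and chr9:44980432-44980681 on the reverse strand for Cd3g, taken from RefSeq, written 5′ to 3′, and promoters by position only. Capitals mark matches to short motif words on either strand: in Cd3d 2 matches to CTTTGA, the word for TCF/LEF factors such as the products of Tcf7 and Lef1, beginning 73 and 54 bases before the start, and in Cd3g 1 match to AGATAA, the word for GATA factors, beginning 104 bases before it.
Cd3d: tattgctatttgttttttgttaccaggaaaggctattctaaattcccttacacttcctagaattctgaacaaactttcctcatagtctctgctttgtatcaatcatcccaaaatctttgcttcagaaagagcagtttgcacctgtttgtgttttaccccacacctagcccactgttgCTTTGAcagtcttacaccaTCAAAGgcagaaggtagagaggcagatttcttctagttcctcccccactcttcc
Cd3g: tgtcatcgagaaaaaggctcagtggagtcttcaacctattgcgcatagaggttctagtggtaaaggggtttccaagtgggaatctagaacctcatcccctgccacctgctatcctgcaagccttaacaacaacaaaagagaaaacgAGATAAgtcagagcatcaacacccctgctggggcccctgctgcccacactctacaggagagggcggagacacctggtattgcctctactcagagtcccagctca
The TCF/LEF word was present upstream of 5 of the 24 members with a listed start site and of 14% of all 27025 genes listed, and the word for GATA factors upstream of 1 of 24 and of 10.3%.

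The kinases and adaptors behind the receptor were close to the CD3 chains in their order. Zap70, the kinase that docks on the phosphorylated chains, was at -0.67, 1.91 and -0.47 against 0.47 and 1.05, and Skap1, an adaptor that links the receptor to integrin adhesion, at -0.61, 1.80 and -0.53 against 1.03 and 1.48. Txk, a Tec family kinase, was at -2.86, -0.41 and -2.89 against -0.93 and -0.55. These 3 genes had wild-type 11 on top and both c-Jun-deleted arrays well above wild-type 5 and 14. Lck, the kinase that starts the signal, was at 1.98, 3.62 and 2.01 against 3.10 and 3.73, and Lat, the adaptor, at -0.97, 0.47 and -1.30 against 0.02 and 0.44. Trat1, a transmembrane adaptor of the receptor, was at -4.62, -3.16 and -4.50 against -3.59 and -2.78. In Lck and Trat1 c-Jun-deleted 9 was the highest array, just ahead of wild-type 11. The largest group difference of this role was that of Txk (1.31, SE 0.86, limma adjusted p = 0.557).

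Cd247, the zeta chain, stood apart from its partners. Its brightest probe was at -2.64, -2.99 and -3.08 on the wild-type arrays against -3.38 and -3.31, with the groups not overlapping (difference -0.44, SE 0.19, limma adjusted p = 0.431). Its second probe, also above background on all 5 arrays, was at -3.75, -2.59 and -3.74 against -3.35 and -2.73, with wild-type 11 highest as for the CD3 chains. The probes of this gene therefore disagreed in order and in sign, and under background correction with normexp the difference of the brightest probe was 0.06. Among the 12 members with more than 1 probe, 10 had the same highest array for all their probes and 9 the same sign of the group difference; Bcl11b and Cd247 were the exceptions in the first count and Cd247, Cd4 and Nkg7 in the second.

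Among the surface proteins, the CD8 chains had the widest spread. Cd8a, the alpha chain of the co-receptor for MHC class I, was at -4.80, -0.66 and -3.98 on wild-type 5, 11 and 14, against -3.57 and -2.89 on c-Jun-deleted 1 and 9, above background on 4 of 5 arrays. Cd8b1, the beta chain, was at -4.16, -0.43 and -3.72 against -2.51 and -1.77. For Cd8b1, wild-type 11 exceeded the mean of wild-type 5 and 14 by 3.50 and the c-Jun-deleted mean exceeded it by 1.79. For Cd8a, most spots of the probe on wild-type 5 were not above background, so the size of its gap is uncertain. Cd4, the co-receptor for MHC class II, had a narrow range, at 1.36, 1.99 and 1.16 against 1.52 and 1.48 (difference 0.00, SE 0.29), with wild-type 11 again the highest. Cd4 signal need not come from T cells, since some macrophages and dendritic cells also express it.

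The costimulatory receptor Cd28 was at -1.89, 0.36 and -1.74 against -0.69 and 0.11. Cd6, a scavenger-type receptor of T cells, was at -0.06, 2.25 and 0.00 against 0.93 and 1.41, and Thy1, a small GPI-anchored protein of T cells, at 0.66, 3.38 and 0.94 against 1.68 and 2.32. All 3 repeated the order of the CD3 chains, with group differences of 0.80 (SE 0.79), 0.44 (SE 0.80) and 0.34 (SE 0.91).

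Cd2, an adhesion receptor of T and NK cells that mouse B cells carry too, had another order. It was at 3.46, 3.31 and 2.50 on wild-type 5, 11 and 14, against 5.06 and 5.44 on c-Jun-deleted 1 and 9, so both c-Jun-deleted arrays lay above every wild-type array and wild-type 11 was not raised. The difference was 2.16 (SE 0.35), or 4.48-fold, with a limma adjusted p of 0.219, the lowest among the members. With arrays centred on their median it was 2.37 with an adjusted p of 0.0482, the only member call under any alternative. Its second probe gave 2.24, and the authors' deposited table holds differences of 2.16 and 2.24 for the same probes. Beside it, the B cell markers had a median difference of 2.35. Blnk, a B cell adaptor, is named because its probe was the brightest of that list, which ranks no expression. It was at 5.31, 5.31 and 4.87 against 6.29 and 6.55, and like Cd2 it was not raised on wild-type 11. Its difference of 1.26 was near the low end of the list, which ran from 1.21 to 2.76. Of the 19 B cell markers, 5 were higher on wild-type 11 than on both other wild-type arrays, against 33.3% of all genes. Fcer2a, for instance, was at -0.64 there and at -1.82 and -2.83 on wild-type 5 and 14. The part of B cells in the Cd2 value was not tested.

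Of the receptors for homing and survival signals, Ccr7, which guides T cells, B cells and dendritic cells to lymph nodes, was at 2.81, 3.82 and 2.06 against 3.93 and 4.10. Both c-Jun-deleted arrays were above all wild-type arrays, though close to wild-type 11, and the difference of 1.12 (SE 0.54) had a limma adjusted p of 0.462. Il7r, the interleukin 7 receptor chain that keeps naive T cells alive, was at 0.22, 1.39 and 0.50 against 1.02 and 1.64, with overlapping groups.

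Tcf7 and Lef1, the paired transcription factors of naive and memory T cells, combined both orders. Tcf7 was at -2.81, -0.82 and -3.31 on wild-type 5, 11 and 14, against -0.35 and 0.13 on c-Jun-deleted 1 and 9. Lef1 was at -1.58, 0.32 and -1.74 against 0.73 and 1.40. Wild-type 11 exceeded the other wild-type arrays by about as much as it did for the CD3 chains, yet both c-Jun-deleted arrays were higher still, so the groups did not overlap. The differences were 2.21 (SE 0.80), or 4.61-fold, for Tcf7 and 2.07 (SE 0.72), or 4.19-fold, for Lef1, with limma adjusted p values of 0.392 and 0.380. The second probes gave 2.33 and 1.95, and the authors' deposited table holds 2.21 for Tcf7 and 2.07 for Lef1. With normexp they were 1.55 and 1.66.

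Bcl11b, the zinc finger factor of T lineage commitment, was at -3.23, -0.98 and -3.63 against -1.69 and -1.12, and Gata3, a factor of T helper 2 cells, innate lymphoid cells and T cell development, at -1.97, -0.64 and -1.96 against -1.16 and -0.79. Both had the order of the CD3 chains. Of the factors of cytotoxic and type 1 cells, Tbx21 had that order too and Eomes did not. Tbx21, which encodes T-bet, was at -1.49, 0.29 and -1.73 against -1.25 and -0.88, and Eomes, its relative in NK and CD8 T cells, at -4.41, -1.54 and -4.11 against -4.68 and -3.97. For Eomes only wild-type 11 was high, and the c-Jun-deleted mean differed by -0.07 from the mean of wild-type 5 and 14.

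Granule genes were highest on wild-type 11 in 4 of 4 cases. Gzmb, which encodes granzyme B, a protease that triggers death of the target cell, was at -4.57, 1.40 and -3.17 on wild-type 5, 11 and 14, against -5.12 and -4.83 on c-Jun-deleted 1 and 9, above background on 3 of 5 arrays, wild-type 5 and c-Jun-deleted 9 being the others. Gzma, the gene of granzyme A, was at -2.85, 0.95 and -2.02 against -1.78 and -1.37. Gzmb was high on wild-type 11, and the order of the dim arrays and the size of the gap to them are uncertain. The group difference of -2.86 (SE 1.84, limma adjusted p = 0.555) became -1.10 without wild-type 11 and -1.59 with normexp. Nkg7, a granule membrane protein, was at 1.61, 2.93 and 1.52 against 2.16 and 1.97, and its second probe at -2.56, 1.64 and -1.82 against -1.78 and -1.6. Prf1, perforin, which opens the target membrane, had a narrow range, at -1.51, -0.69 and -1.67 against -1.21 and -0.88.

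The upstream sequences of both granzyme genes are shown because these had the widest gaps between wild-type 11 and the c-Jun-deleted arrays among the granule genes, and because AP-1, the factor that c-Jun is part of, has a known word. The windows are the 250 bases before the start site in assembly GRCm38.p6 from RefSeq, both on the reverse strand, chr13:113100982-113101231 for Gzma and chr14:56262335-56262584 for Gzmb, written 5′ to 3′. Capitals mark matches on either strand to TGTGGT, the word for RUNX factors, beginning 50 bases before the start in Gzma and 93 and 34 bases before it in Gzmb, and in Gzmb to TGANTCA, the AP-1 word, beginning 58 bases before it.
Gzma: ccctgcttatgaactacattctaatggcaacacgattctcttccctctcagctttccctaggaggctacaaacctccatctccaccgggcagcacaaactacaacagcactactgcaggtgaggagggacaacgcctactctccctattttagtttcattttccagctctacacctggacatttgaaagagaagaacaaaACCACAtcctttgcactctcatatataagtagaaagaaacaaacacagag
Gzmb: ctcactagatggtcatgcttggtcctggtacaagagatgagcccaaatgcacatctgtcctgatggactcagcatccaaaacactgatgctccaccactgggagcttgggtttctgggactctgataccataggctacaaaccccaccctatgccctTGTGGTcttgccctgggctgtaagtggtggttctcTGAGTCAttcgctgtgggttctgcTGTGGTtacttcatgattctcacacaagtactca
The AP-1 word was present upstream of 1 of the 24 members with a listed start site, Gzmb, and of 6.87% of all genes listed. The RUNX word was present upstream of 9 of the 24, namely Gzma, Gzmb, Klrb1c, Klrk1, Lck, Ncr1, Nkg7, Prf1 and Trat1, against 14.2% of all genes, and the ETS word CAGGAAG upstream of 7 of 24 against 10.5%. The other words searched were the T-box word GGTGTGA (2 of 24, against 3.31%), the NFAT word GGAAAA (4 of 24, against 20.6%) and the E-box word CAGCTG (2 of 24, against 12.8%). A match is a description of the letters and not a binding site.

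NK receptors were highest on wild-type 11 in 4 of 4 cases, mostly at low signal. Klrd1, the CD94 subunit shared by inhibitory and activating receptors, was at -2.37, 0.09 and -2.38 against -0.87 and -0.53, above background throughout, with the order of the CD3 chains. Klrb1c, the NK1.1 antigen, was at -5.0, -1.89 and -3.99 against -3.97 and -3.67, above background on 4 of 5 arrays. Ncr1, the NK activating receptor NKp46, was at -3.80, -3.28 and -6.53 against -5.21 and -4.76, and Klrk1, the activating receptor NKG2D, at -5.18, -3.0 and -5.69 against -4.91 and -4.14. These last 2 genes were above background on 3 of 5 arrays each, so their differences between dim arrays are uncertain.

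Role by role, the values of wild-type 11 and of the c-Jun-deleted arrays were as follows. Against the mean of wild-type 5 and 14, the median excess on wild-type 11 was 2.04 for the CD3 and signalling genes, 2.28 for the co-receptors and costimulatory proteins, 2.12 for the transcription factors, 2.38 for granule genes and 2.45 for NK receptors. Against the same mean, the median excess of the c-Jun-deleted mean was 1.38, 1.20, 1.5, 0.52 and 0.80 in that order. The c-Jun-deleted mean differed from wild-type 11 by a median of -0.45, -1.08, -0.38, -1.70 and -1.62 in the same order of roles. It lay above wild-type 11 for 4 genes, Cd2, Tcf7, Lef1 and Ccr7. The order of the CD3 chains held in 6 of 7 co-receptors and costimulatory proteins and in 3 of 6 transcription factors. It also held in 3 of 4 granule genes, 3 of 4 NK receptors and 0 of 2 homing and cytokine receptors. The excesses share wild-type 5 and 14 as their base, and no difference between roles was tested.

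**Figure D3:**
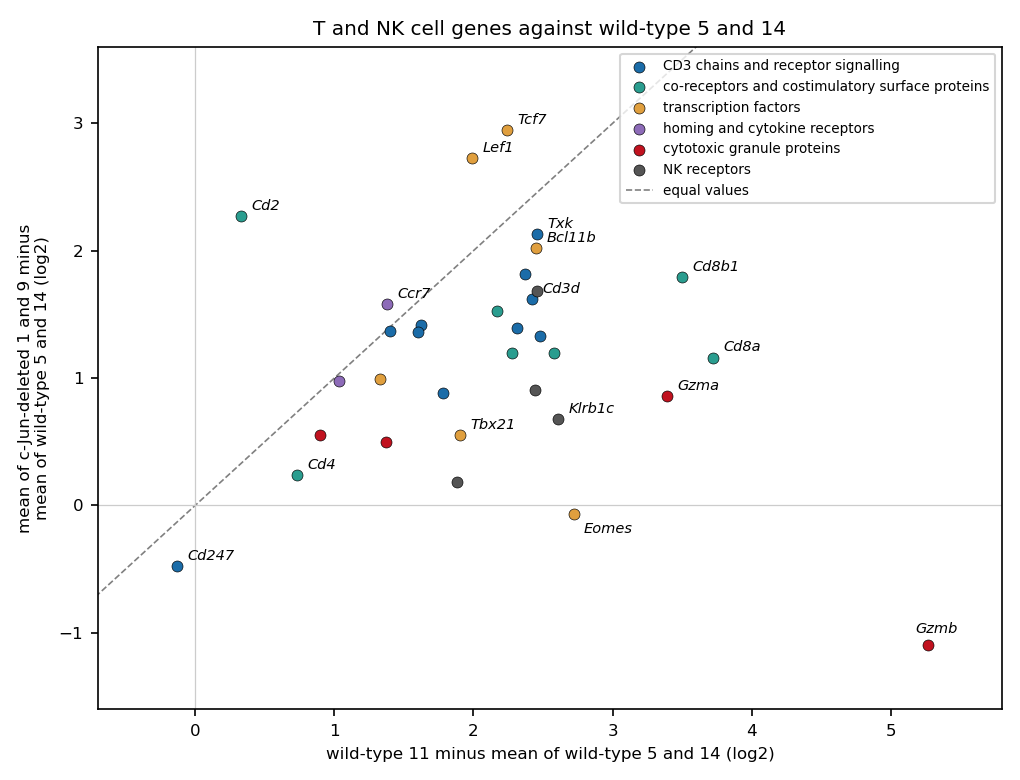
Excess of wild-type 11 (horizontal axis, log2) and of the c-Jun-deleted mean (vertical axis, log2) over the mean of wild-type 5 and 14, with 1 point for each of the 33 genes, coloured by role; the dashed line marks equal values, and both axes share wild-type 5 and 14. Cd2, Tcf7, Lef1 and Ccr7 lie above the line, and Gzmb, Eomes, Gzma and Cd8a lie far below it.

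The comparison between the genotypes asks which of these genes differed between c-Jun-deleted and wild-type macrophage cultures. On both c-Jun-deleted arrays Cd2, Tcf7, Lef1 and Ccr7 exceeded all 3 wild-type values, and Cd247 and Gzmb lay below all of them. For Gzmb that order includes arrays at background, and for Cd247 the second probe had the opposite sign (0.32). Of the 33 members, 24 had a higher mean in the c-Jun-deleted group, as did 10796 of all 27938 genes tested. The median difference was 0.54 over the members, beside -0.09 over all genes tested. By limma with Benjamini-Hochberg adjustment over all genes, 0 of 33 members had an adjusted p below 0.05, as did 0% of all genes. At an unadjusted limma p below 0.05 there were 3 members, Cd2, Tcf7 and Lef1, all higher. Of all genes, 12.2% had such a p in either direction, with 1572 higher and 1823 lower among 27938. The 4 members above the wild-type range compare with 13.3% of all genes and the 2 below it with 20.2%. The members thus left the wild-type range no more often than other genes.

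**Figure D4:**
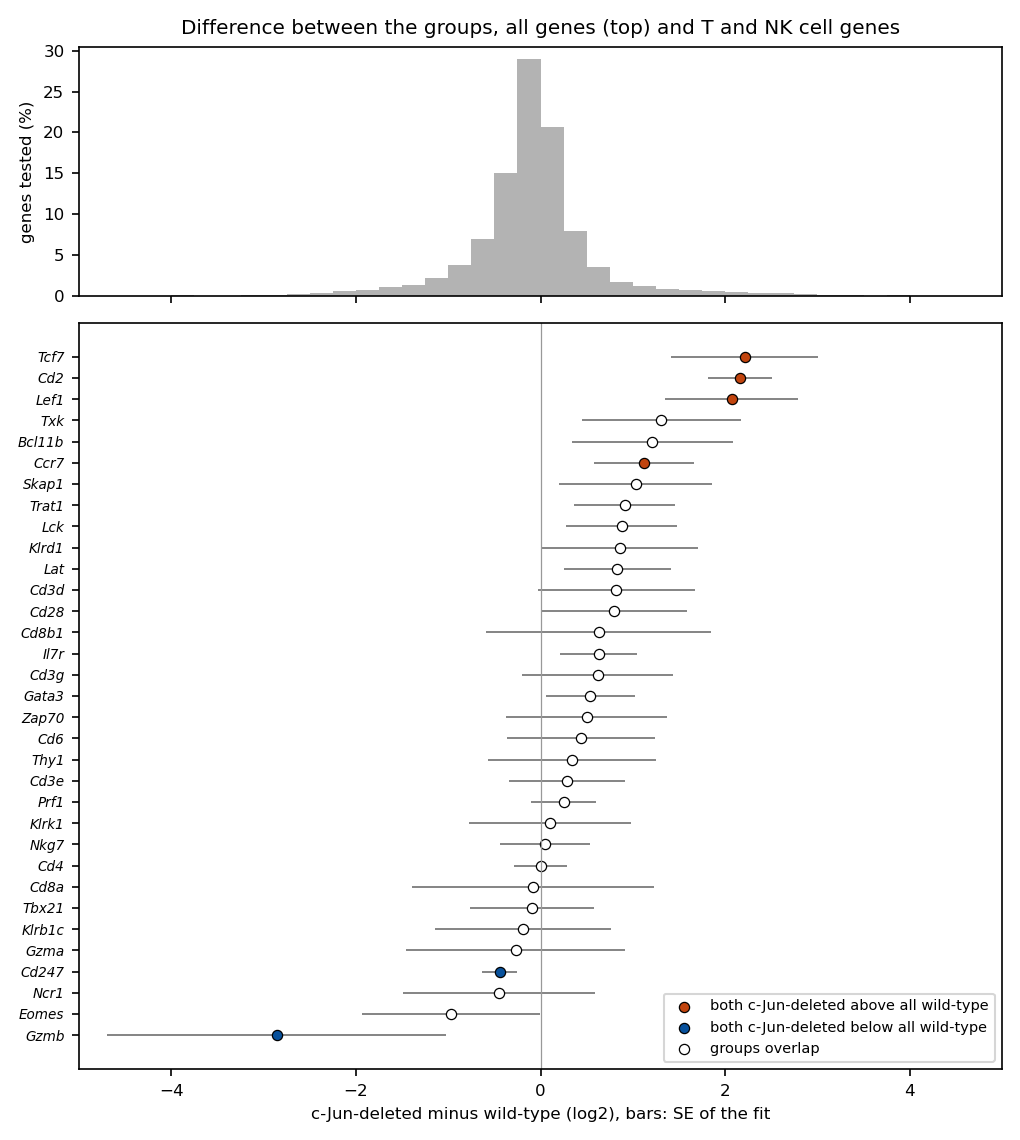
Group difference (c-Jun-deleted minus wild-type, log2) of all genes tested as a histogram in percent (top, values beyond 4 placed in the outermost bins) and of each T and NK cell gene with its SE (bottom). Filled points mark the 4 genes above and the 2 below the wild-type range; most error bars of the other genes cross or nearly reach 0.

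The median difference and the unadjusted counts depended most on wild-type 11, while 0 members had an adjusted p below 0.05 with or without it. Without that array the median difference over the members was 1.20, beside -0.11 over all genes, and 29 of 33 members were above the range of wild-type 5 and 14 in both c-Jun-deleted arrays, against 19.9% of all genes. At an unadjusted limma p below 0.05, 24 members were then higher, against 7.13% of all genes. The lowest limma adjusted p was 0.187, among the members as among all genes, so 0 members passed. That array was singled out after its values were seen, and leaving out the highest wild-type array can only raise these differences where it was highest. Without wild-type 5 or 14 the median difference was 0.11 or 0.15, and without c-Jun-deleted 1 or 9 it was 0.79 or 0.25. Within slide 1, where c-Jun-deleted 1 stands against wild-type 5 alone, 29 of 33 members were higher. The median there was 1.03, beside -0.1 over all genes, whose share of higher values was not counted. Within slide 2, where c-Jun-deleted 9 stands against wild-type 11 and 14, the median was 0.31, and with the slide as a block in the fit it was 0.68.

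In a list of 46 other T and NK cell genes, the order with both c-Jun-deleted arrays between wild-type 11 and the other wild-type arrays held in 20 of 43 genes tested. Of the 43, 29 had their highest value on wild-type 11, and 38 were higher there than on both other wild-type arrays. The median group difference was 0.24, with 28 genes higher and 15 lower, beside 10796 higher and 17142 lower among all genes. By limma, 0 of the 43 had an adjusted p below 0.05. An unadjusted p below it was found for 5, a share close to the 12.2% of all genes. Both c-Jun-deleted arrays were above all wild-type arrays for 5 of the 43, against 13.3% of all genes. Ets1, a transcription factor of lymphocytes, was at -0.05, 0.49 and -0.99 in wild-type against 1.85 and 2.27 (difference 2.24, SE 0.48, limma adjusted p = 0.242). Ctla4, an inhibitory receptor of T cells, was at -4.13, -3.93 and -5.0 against -2.83 and -1.66 (2.11, SE 0.50), above background on 2 of 3 wild-type arrays. Satb1, a chromatin organiser of T cells, and Grap2, an adaptor that binds Lat, had differences of 1.30 (SE 0.43) and 1.77 (SE 0.66). For these 4 genes both c-Jun-deleted arrays exceeded all wild-type arrays, as for Tcf7 and Lef1. Klrg1, an inhibitory receptor of mature NK and effector T cells, was the one lower gene among the 5, at -3.56, -2.09 and -3.42 against -4.82 and -4.97 (-1.87, SE 0.50), above background on 1 of 2 c-Jun-deleted arrays. Ifng, the gene of interferon gamma, named after its values were seen, was at -2.88, 1.11 and -2.29 against -1.23 and -3.99, and was thus high only on wild-type 11. Ccl5, a chemokine gene, was left out of the test for a spot flagged as outlying. It was at 4.67, 7.42 and 6.55 against 4.35 and 4.17 (-1.95), with both c-Jun-deleted arrays below all wild-type arrays.

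Markers of other cells differed between lists. For all 19 B cell markers measured both c-Jun-deleted arrays exceeded every wild-type array, with a median difference of 2.35, and 0 of 19 had their highest value on wild-type 11. The summed level of the B cell markers was 97.4 to 164 times the 75th percentile signal over the wild-type arrays, against 500 and 717 with c-Jun deleted, with 18 or 19 of them above background on each array. The summed level of the 33 T and NK cell genes was 38.8, 103 and 31.2 on wild-type 5, 11 and 14, against 89 and 116 on c-Jun-deleted 1 and 9. Cd2, which B cells carry too, weighed most in the c-Jun-deleted sums, at 5.06 and 5.44 there and 3.31 on wild-type 11. The 10 CD3 and signalling genes alone summed to 9.05, 35.2 and 9.44 against 19.9 and 29.1. The 9 mast cell markers tested summed to 41.9 to 123 over the wild-type arrays, against 100 and 485, and 0 of the 9 were highest on wild-type 11. The 485 was carried by 1 probe, Mrgprb1, a mast cell receptor, at 8.61 on c-Jun-deleted 9 but -0.41 on c-Jun-deleted 1, and the list's medians relative to the wild-type mean were 0.57 and 0.56 on these arrays. The 9 dendritic cell markers tested summed to 180 to 186 over the wild-type arrays, against 163 and 174, a sum carried mostly by Siglech, and Xcr1 was not above background on any array. Of these 9, 5 were highest on wild-type 11, as most T and NK cell genes were, namely Flt3, Zbtb46, Itgax, Bst2 and Batf3, and the list's median there was 0.49 relative to the wild-type mean. Clec9a, Siglech and Irf4 were highest on c-Jun-deleted 9, and Cd209a was lowest on wild-type 11, at -2.05. For all 5 globin genes measured, transcripts of red cells, both c-Jun-deleted arrays exceeded every wild-type array, and 0 of the 5 were highest on wild-type 11. The 11 macrophage markers summed to 577 on wild-type 11, and to between 669 and 840 on the other 4 arrays.

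On wild-type 11, where the T and NK cell genes were highest, 2 genes of resident peritoneal macrophages were at their lowest, both named after their values were seen. Gata6, the transcription factor of these macrophages, was at 1.81, -1.07 and 1.29 on wild-type 5, 11 and 14, against 1.48 and 2.08 on c-Jun-deleted 1 and 9. Timd4, a receptor for dying cells, was at 4.31, 1.47 and 4.66 against 4.83 and 4.11. Adgre1, Cd68 and Cd14 of the macrophage list were also lowest on wild-type 11, at 6.68, 6.82 and 6.56. For the last 2 the gap was small, with Cd68 at 6.84 on wild-type 14 and Cd14 at 6.56 on c-Jun-deleted 9. Icam2, an adhesion protein also in the macrophage list, was not low there, at 4.96, 5.34 and 4.59 against 5.36 and 5.72. Csf1r, Itgam, Fcgr1, Mertk and Cebpb of that list also had their lowest value on other arrays. The median of the list on wild-type 11 was -0.20 relative to the wild-type mean. The Y-linked signal, 5 of the 9 dendritic cell markers, and Gata6 and Timd4 go with the T and NK cell values of wild-type 11. Their part in the result was not tested. Sex, as read from the Y-linked genes and Xist, cannot be told apart from the other traits of wild-type 11. On the same slide, wild-type 14 had low T and NK cell values, while c-Jun-deleted 9 was above c-Jun-deleted 1 of slide 1 for 31 of 33 members. The part of the slide was not tested.

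**Figure D5:**
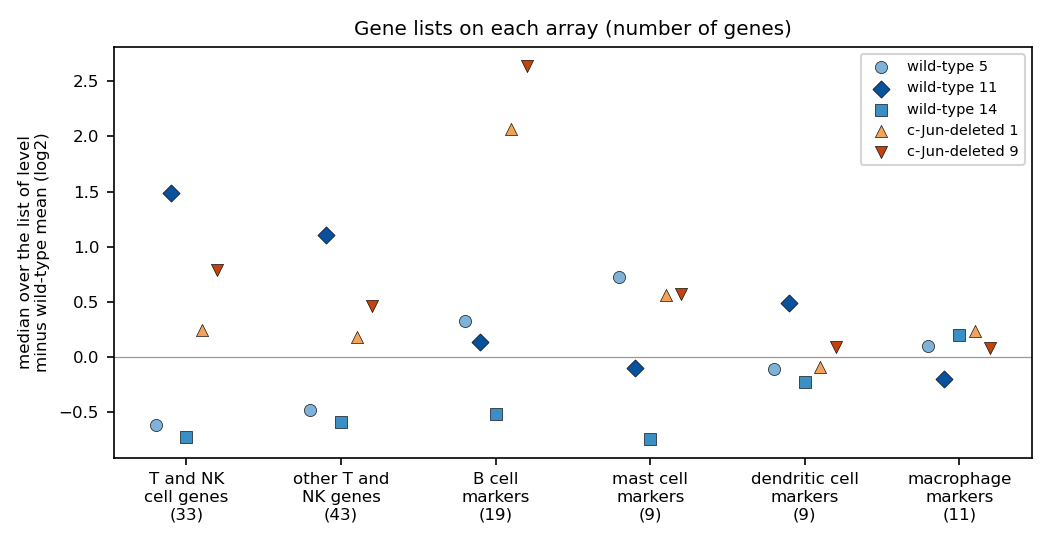
Median over each gene list of the level on an array minus the wild-type mean of the same gene (vertical axis, log2), for 6 lists with their numbers of genes and 5 arrays as symbols. T and NK cell genes stand at 1.49 on wild-type 11 and at 0.25 and 0.79 on c-Jun-deleted 1 and 9, whereas B cell markers stand at 0.14 on wild-type 11 and at 2.07 and 2.64 on the c-Jun-deleted arrays.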

How the data were processed

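RNA from adherent peritoneal cells of 3 wild-type and 2 c-Jun-deleted mice was measured on 1-colour Agilent arrays. The intensity of each spot was deposited as Feature Extraction 11.5.1.1 wrote it, background-subtracted and without scaling between arrays, per the file headers. The deposited files also hold flags of another kind, 0 or 1, for spots well above background or outlying. The authors' deposited table gives, for 1709 probes, the mean of each group in log2 units shifted to the 75th percentile, as its name states; the baseline subtracted from each probe is not given in the sources used here, so only the difference of its columns was used. Its header names a further wild-type array, not used here.

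Log2 of the processed signal minus log2 of each array's 75th percentile over the 59305 non-control spots was used. The 75th percentile signal was between 437 and 596. Spots with a feature outlier flag were left out and spots of 1 probe averaged. A probe entered if at least 2 of 5 arrays had it well above background (32821, of which 256 had a flagged spot that left an array without a value). Accessions were matched without version to RefSeq symbols of GRCm38.p6, which named 28026 of 55681 probes. The arrays were designed on mm9, so probes are given no coordinates. A gene was its brightest tested probe by the mean over arrays, and unnamed probes were tested as they were.

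Groups were compared over all 27938 genes with limma 3.58.1 in R 4.3.3 (lmFit, eBayes, 2-sided, Benjamini-Hochberg, threshold 0.05), and the script was tested on simulated data. No exact permutation test was run, as 3 arrays against 2 allow a smallest p of 0.1. The labels number the mice but do not say that the cultures were independent, so the spread behind the p-values may be that of the samples only, which may be technical. The members and lists were chosen with earlier results of these data known. Every member is named with its 5 values. Of the other T and NK cell genes, those with an unadjusted p below 0.05 and the 3 largest differences among those tested are named. Ccl5, which was not tested, and Ifng are named besides. Symbols were matched for 45 of these 46 genes. Alternatives were normexp (offset 50, on the median spot signal, as the files used here hold no mean), quantile normalization, median centring, no filter, flagged spots kept, all probes averaged, the slide as a block or taken alone, and each array left out.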

Additional observations from a re-analysis of the deposited data

How the results depend on the processing

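With each array left out, the count of members with an unadjusted p below 0.05 ran from 1 to 24, the median difference from 0.11 to 1.20, and the count of members with an adjusted p below 0.05 stayed at 0. The 24 came without wild-type 11 and the 1 without wild-type 5 or without either c-Jun-deleted array. Within slide 2 the unadjusted count was 1, and with median centring, which moved the median of all genes from -0.09 to 0.12, the adjusted count was 1 (Cd2). The number of members highest on wild-type 11 was 21 with median centring and 25 to 28 under the other alternatives that include that array. With normexp 0 members were below the wild-type range, and with quantile normalization, median centring or all probes averaged 1 was. No paired analysis was possible because the groups share no mouse number in the sample titles. With 2 c-Jun-deleted arrays, differences of dim probes such as Ncr1 and Klrk1 are limited by signal near background.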
